A study of Mus musculus with 108 samples.

Results

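The Spi1 locus was examined in an enhancer screen that followed mouse embryonic stem (ES) cells on their way to blood. The locus was taken as the Spi1 gene of the GENCODE annotation (mm10, chromosome 2, 91082390 to 91115756, plus strand) with 100 kb on each side, which spans 90982390 to 91215756. All distal and promoter fragments listed in a sorted library that overlapped this window were counted, together with the fragments of the pDONR and pSKB plasmid lists. Overlapping fragments of 1 class were merged into sites, which gave 21 sites in the window (13 distal, 8 promoter) of 76779 in the series (58916 distal, 17863 promoter). These 21 sites held 444 of 1177237 distinct fragments. The window held more fragments than the windows of 78.1% of 21924 protein-coding genes built in the same way, whose median was 207.

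In the screen, open chromatin was cut out with the Tn5 transposase at 5 stages, and the pieces were cloned into pDONR and moved into pSKB, before a minimal HSP68 promoter and a Venus-YFP reporter. The reporter was placed at Hprt in HM-1, a line of mouse ES cells, so every cell tested its fragment away from the fragment's own locus. The cells were differentiated in serum culture and sorted as ES cells, FLK1+ hemangioblast cells (HB), KIT+TIE2+CD41- hemogenic endothelium (HE1), KIT+TIE2+CD41+ hemogenic endothelium (HE2) and KIT+TIE2-CD41+ hematopoietic progenitors (HP). In replicates 1 to 4, YFP gates were set as Negative, Low, Medium or High at each stage, and in replicate 5 as Negative, Low or Medium/High, which made 95 sorted libraries. A positive set is the union of the Low, Medium, High and Medium/High lists of 1 stage and 1 replicate, so there were 25 positive and 25 Negative sets. Wild-type HM-1 cells gave 3 PCR control lists, and each plasmid list was 1 library without a replicate. These screen lists hold no transcript levels, so the stages were not checked against marker genes here.

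Spi1 encodes PU.1, an ETS-family transcription factor that is required for myeloid and lymphoid development and is dose-sensitive in blood progenitors. The mouse gene is known to be controlled by its proximal promoter together with an upstream regulatory element (URE), which RUNX1, PU.1 itself and C/EBP factors bind. RUNX1 is the factor that drives the step from hemogenic endothelium to blood, and opening of the URE is one of the events described for that step. Sites are named below by the distance of their middle from the RefSeq start of Spi1 (91096678), and the zone from 16 to 12 kb upstream was set to hold the URE.

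The central 300 bases of 2 sites are shown, since the findings on Spi1 turn on them. The −13.6 kb site is the site of the URE zone, and the +4.9 kb site covers an intronic interval that the study's list of primed elements assigns to Spi1. The study also cloned the URE by itself as a reporter, which was not analysed here. They lie on the plus strand of GRCm38.p6 at chr2:91082931-91083230 and chr2:91101431-91101730, in the order printed. Capitals mark matches on either strand. The RUNX letters searched were TGNGGT, those of the C/EBP factors TTGCNNAA and those bound by the GATA family AGATAA. The PU.1 core (GAGGAA), AP-1 (TGANTCA) and TEAD (GGAATG) letters were also searched and had no match in either window. Only these exact letters were searched, so sites of these factors with other letters would be missed. The study refers to a PU.1 autoregulatory site in the URE, and the missing match does not show that no PU.1 site is present.
−13.6 kb: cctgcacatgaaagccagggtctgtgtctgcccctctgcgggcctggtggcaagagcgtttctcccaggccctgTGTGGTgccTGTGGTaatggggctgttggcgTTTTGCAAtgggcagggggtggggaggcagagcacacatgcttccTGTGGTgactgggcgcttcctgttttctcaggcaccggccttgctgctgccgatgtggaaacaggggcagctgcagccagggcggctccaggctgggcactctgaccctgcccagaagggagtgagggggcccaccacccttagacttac
+4.9 kb: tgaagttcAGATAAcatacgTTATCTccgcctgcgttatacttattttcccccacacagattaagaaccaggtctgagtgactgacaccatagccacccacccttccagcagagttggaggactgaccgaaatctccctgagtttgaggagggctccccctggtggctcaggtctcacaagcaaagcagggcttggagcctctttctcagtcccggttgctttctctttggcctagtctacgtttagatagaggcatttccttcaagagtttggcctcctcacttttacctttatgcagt

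The −13.6 kb window held 3 RUNX matches, all read TGTGGT, at bases 75 to 80, 84 to 89 and 151 to 156, and 1 C/EBP match at bases 106 to 113. Of 58911 distal windows of this length, 54.3% held a RUNX match, 5.19% held 3 or more and 10.6% held a C/EBP match. At least 1 match of each kind was in 5.57%, and 3 or more RUNX matches with a C/EBP match in 269 (0.457%). The latter combination was taken from the −13.6 kb window itself, so its rarity is no test. The +4.9 kb window had 2 GATA matches at bases 9 to 14 and 21 to 26. A GATA match was present in 18.3% of distal windows and 2 or more in 2.44%. E-boxes (CANNTG), left in lower case, numbered 3 and 0 in the −13.6 and +4.9 kb windows, and 81.2% of distal windows had at least 1. These matches are letters in a window and were not tested for binding. GC content was 63.7% at −13.6 kb and 49.7% at +4.9 kb, against a median of 50.7% over distal windows.

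Precision differed widely between replicates. The sorted libraries listed 504 to 131091 fragments (median 7918), each once and without a read count. Sets of replicates 1 and 2 listed 23331 to 229786 fragments and sets of replicates 3 to 5 listed 720 to 37403. A window fragment was listed in 76 of the 95 libraries. Where nothing says that replicates came from separate cultures, the p-values below measure only the spread between these samples, and the intervals, all 95%, cover counting error only. Of the HE1 libraries, Negative of replicate 1 and Medium of replicate 2 shared 35 window fragments, which was 67.3% of the former and 76.1% of the latter, and Negative of replicate 3 and Low of replicate 4 shared 2 of 2 and 4. HE1 values are therefore given with and without these 4 libraries where they touch a result.

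**Figure D1:**
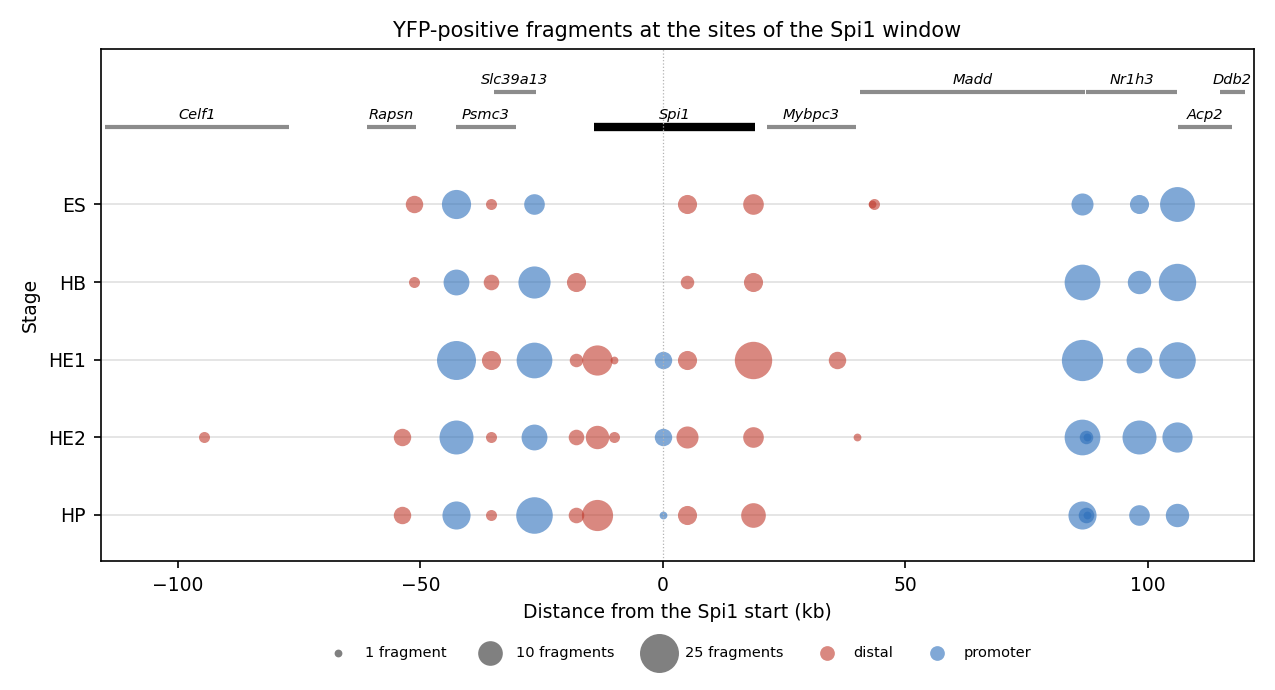
YFP-positive fragments at the 21 sites of the Spi1 window. The x axis is the distance from the Spi1 start in kb, each row is a stage, and circle area gives the number of fragments in the positive sets summed over 5 replicates (red distal, blue promoter), with gene bodies on top. The −13.6 kb and Spi1 promoter positions are empty in the ES and HB rows, while the +4.9 and +18.7 kb positions are filled in every row.

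The −13.6 kb site (91082792 to 91083370, distal list) lay in an intron of the longer Spi1 transcripts, 384 bp from an upstream transcript start of Spi1. It carried 33 distinct fragments. In ES and HB cells, the positive and the Negative sets of all 5 replicates listed 0 of them. In HE1 the positive sets of replicates 1 to 5 listed 5, 10, 0, 0 and 0 fragments, in HE2 6, 3, 0, 0 and 0, and in HP 11, 5, 0, 0 and 0. The Negative sets of the same replicates listed 6, 2, 0, 0 and 0 in HE1, 1, 2, 0, 0 and 0 in HE2, and 1, 2, 0, 0 and 0 in HP. Thus the element was recovered from HE1 onwards in both deep replicates, from YFP-positive and from YFP-negative cells, and in no sorted list of ES or HB. Without the 4 HE1 libraries that share fragments, HE1 kept 12 of 15 positive and 2 of 8 Negative fragments, in 2 positive replicates and 1 Negative replicate.

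The depth behind these zeros was compared with the rate at the later stages. The positive sets of HE1, HE2 and HP in replicates 1 and 2 held 40 URE fragments among 1019845 listed fragments, a rate of 0.392 per 10000. At that rate the ES sets of replicates 1 and 2 would hold 7.98 fragments and the HB sets 9.56, and 0 were found in each. Taking 3 counts as the most that a count of 0 allows, the rate was at most 0.148 per 10000 in ES and 0.123 in HB. In the Negative sets the same calculation gave 3.00 for ES, which is at that limit, and 3.95 for HB, again with 0 found. In replicates 3 to 5 the later stages would hold 1.96 positive and 1.05 Negative fragments, both under 3, and 0 were found of either. The pattern of no ES or HB list and positive lists in HE1, HE2 and HP was shared by 6.66% of all distal sites, and by 111 of 1946 distal sites (5.7%) with at least 33 fragments, of which 124 (6.37%) were in no ES or HB list. This count and the comparison with the plasmid lists below were chosen after the values were seen, and no test was made of them.

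Whether the cells of a stage carried URE fragments to begin with was read from the plasmid lists. Sorted window fragments were found in plasmid lists of all 5 stages. Of 60 ES window fragments with an identical plasmid fragment, 7 were in the ES lists, 27 in the HE1 lists and 24 in the HE2 lists, and of 83 from HB, 10 were in the HB lists. For HE1, HE2 and HP, 61 of 119, 29 of 101 and 14 of 99 were in their own lists. At the −13.6 kb site, 23 of the 33 fragments had an identical plasmid fragment, with 1 in the ES, 1 in the HB, 12 in the HE1, 7 in the HE2 and 4 in the HP lists. The share of a site was therefore taken over all 5 pSKB lists together.

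At its pooled pSKB share (92 of 4259659 site fragments), the URE would supply 5.18, 6.24, 9.65, 7.63 and 5.82 fragments to the positive sets of ES, HB, HE1, HE2 and HP. The sets held 0, 0, 15, 9 and 16. The intervals of the ES and HB counts, 0 to 3.69 each, lay below the plasmid share, that of HP (9.15 to 26.0) lay above it, and those of HE1 and HE2 included it. Summed over stages, 40 were found against 34.5, and in the Negative sets 14 against 11.3. The sorted lists hold what was left after the authors' filters, which include open chromatin peaks. The sources used here do not say which stage's peaks each list was filtered against, and the part of this filter in the empty ES and HB lists was not tested.

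**Figure D2:**
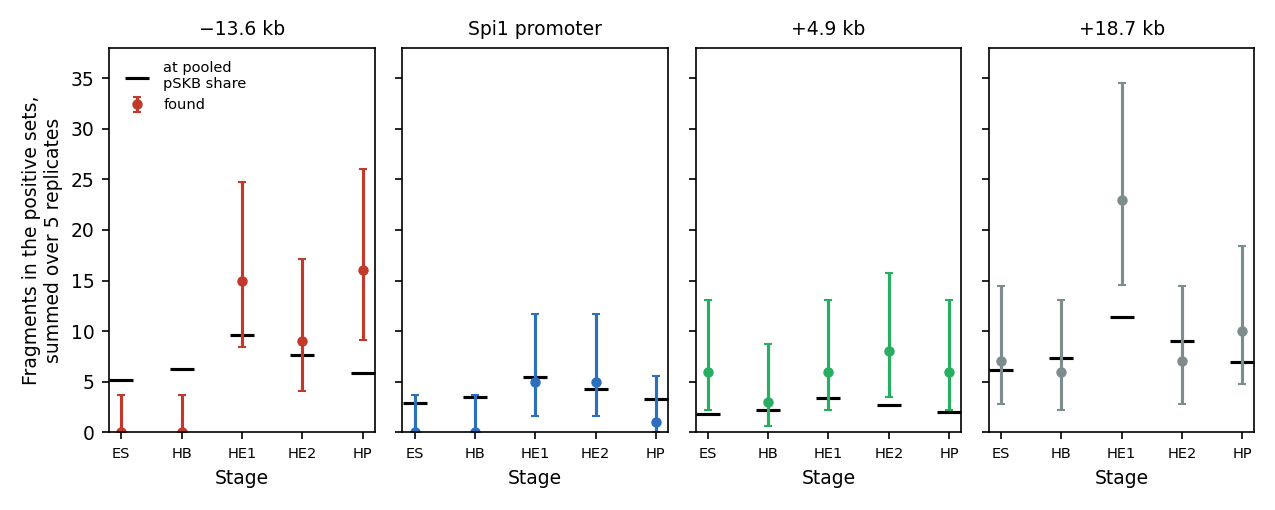
Fragments found in the positive sets of each stage (coloured points, summed over 5 replicates, bars are exact 95% intervals of the count) at 4 sites of the Spi1 locus, beside the number at the site's pooled pSKB share (black dashes). At −13.6 kb the ES and HB points are at 0 below the dashes at 5.18 and 6.24, and at +4.9 kb all 5 points lie above the dashes.

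Before any sorting, the URE was increasingly present in the cloned chromatin from ES to HP. At the −13.6 kb site, pDONR held 4, 23, 100, 110 and 178 distinct fragments from ES, HB, HE1, HE2 and HP chromatin, or 0.707, 3.69, 11.3, 17.3 and 26.0 per 1000000 fragments of the list. In pSKB there were 1, 7, 16, 35 and 33, or 0.590, 3.59, 9.23, 21.0 and 25.3 per 1000000. The rate was thus 36.8 times as high in HP as in ES (interval 14.1 to 137) in pDONR and 42.9 times (7.18 to 1745) in pSKB. The median ratio was 1.30 over 1865 distal sites with at least as many pDONR fragments, of which 2.73% had a ratio at least as high as the URE, and 1.22 over 2406 such sites in pSKB, of which 1.41% did. With 1 list per vector and stage, these ratios compare those lists, and both vectors come from the same cloned material.

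The same order from ES to HP was not seen at all Spi1 sites. At the Spi1 promoter the pDONR rate was 2.47 per 1000000 in ES and 12.3 in HP (ratio 4.96, interval 2.80 to 9.46). At +18.7 kb it was 8.83 and 16.5 (1.87, 1.33 to 2.66). The +4.9 kb site had 5.83 per 1000000 in ES and 5.99 in HP, a ratio of 1.03 (0.634 to 1.68). In pDONR the interval of the URE ratio lay above those of the Spi1 promoter, +4.9 and +18.7 kb sites. In pSKB it lay above those of the +4.9 and +18.7 kb sites (upper ends 5.46 and 5.70) and overlapped that of the Spi1 promoter (0.808 to 7.85).

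**Figure D3:**
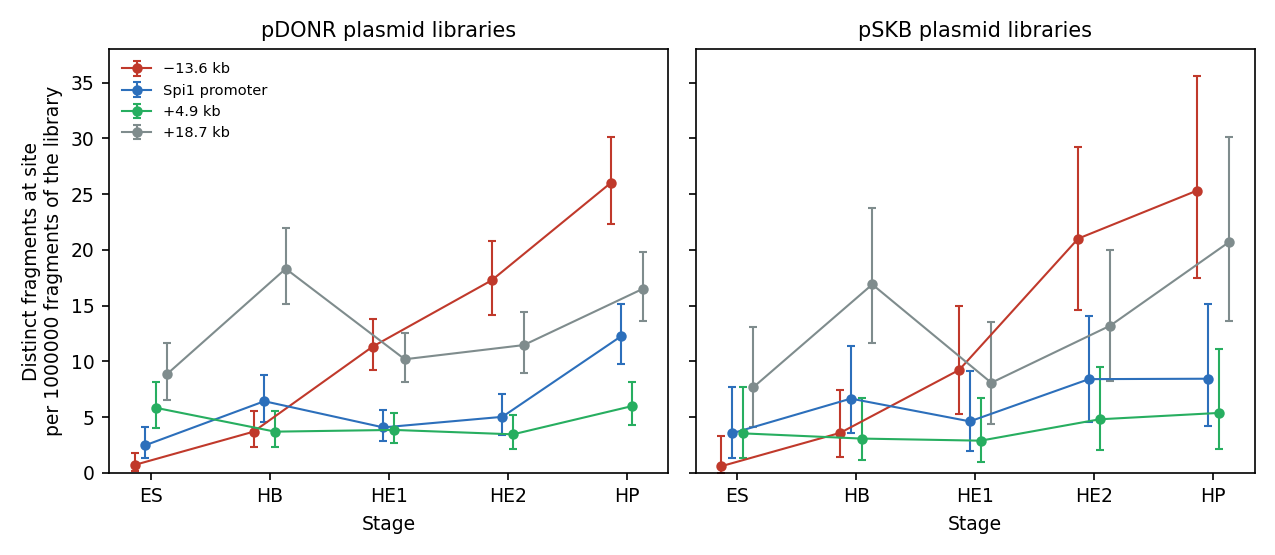
Distinct plasmid fragments at 4 Spi1 sites per 1000000 distinct fragments of the library (y axis), by stage of the chromatin (x axis), in pDONR and pSKB, with exact 95% counting intervals. The −13.6 kb line climbs from 0.707 to 26.0 in pDONR and from 0.590 to 25.3 in pSKB, while the +4.9 kb line stays between 2.89 and 5.99 in both.

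The Spi1 promoter site (91096346 to 91097025) covers the start of the RefSeq transcript and coding sequence of Spi1. Like the URE, it was listed from HE1 on and in no ES or HB list, with fewer fragments. The later stages differed in order. Pooled positive rates in HE1, HE2 and HP were 0.123, 0.156 and 0.0399 per 10000, against 0.345, 0.218 and 0.599 at the URE. The promoter site carried 11 distinct fragments, and ES and HB listed 0 in all positive and Negative sets. The positive sets of replicates 1 and 2 listed 3 and 2 fragments in HE1, 3 and 2 in HE2, and 1 and 0 in HP. The Negative sets listed 1 in HE1 and 1 in HP, both in replicate 1, and replicates 3 to 5 listed 0 throughout. At the later rate of 0.108 per 10000, ES would hold 2.19 fragments and HB 2.63 in replicates 1 and 2, each under the 3 counts that a 0 allows, and both stages together 4.82, which is above it. At its pooled pSKB share it would supply 2.93 fragments to ES and 3.53 to HB, each within the interval of 0 to 3.69, and 6.45 to both together, which is not. Its central window had 1 match each to the RUNX, PU.1 and C/EBP letters, of which 45.0%, 25.3% and 6.58% of promoter windows held at least 1.

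The −10.1 kb site, in a Spi1 intron, had 3 distinct fragments, 1 in HE1 and 2 in HE2, each listed in 1 library and none in a Negative set.

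The +4.9 kb site (91101351 to 91101812, Spi1 intron) was listed in positive sets of every stage. The study chose its elements on these samples, so its activity here is not independent evidence. Its 15 distinct fragments were listed in 12 of 25 positive and 4 of 25 Negative sets. Positive sets of replicates 1 to 5 listed 1, 3, 2, 0 and 0 in ES, 2, 1, 0, 0 and 0 in HB, 3, 2, 0, 0 and 1 in HE1, 3, 5, 0, 0 and 0 in HE2 and 5, 1, 0, 0 and 0 in HP. Unlike at the URE, the ES and HB sets of replicates 1 and 2 held 4 and 3 fragments, against 3.79 and 4.54 at the rate of the later stages. Over all stages 29 positive fragments were found against 12 at the pooled pSKB share, a ratio of 2.41 (1.62 to 3.47). In the Negative sets 5 were found against 3.94 (1.27, 0.412 to 2.96).

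Few fragments made up this count. The fragment from 91101534 to 91101679 (146 bases, numbers 104 to 249 of the printed window) was listed in 13 libraries, 11 positive and 2 Negative, of which 1 was from HB, 3 from HE1, 3 from HE2 and 6 from HP. It does not reach the 2 GATA matches printed above, which were contained in 3 of the 15 fragments and in 3 of 40 listings over libraries. At the URE, by contrast, 26 of 33 fragments contained at least 1 of the 3 RUNX matches, 8 contained all 3, and 19 contained the C/EBP match. The most listed URE fragment, 91083060 to 91083299, was in 4 libraries, all from HP, 2 positive and 2 Negative. Recurrence of a fragment across libraries means that the interval of the 2.41 ratio is too narrow. The same holds for the other counts set against a plasmid share wherever fragments recur.

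The +18.7 kb site (91115108 to 91115617) lay over the last coding exon and the UTR of Spi1 and was listed about as often in Negative as in positive sets, 14 and 13 of 25. It had 43 distinct fragments. Its positive sets of replicates 1 and 2 listed 1 and 3 in ES, 2 and 3 in HB, 14 and 9 in HE1, 3 and 4 in HE2 and 6 and 3 in HP. The HE1 count of 23 lay above the 11.4 of the pooled pSKB share (interval 14.6 to 34.5). It was 20 without the 4 HE1 libraries that share fragments. These 23 were listings of 17 distinct fragments, so this interval is too narrow. The intervals of the positive counts of the other stages included the plasmid share. Over all stages, 53 positive fragments were found against 40.9 (ratio 1.30, 0.971 to 1.69). In the Negative sets, 28 were found against 13.4 (2.09, 1.39 to 3.01).

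Beyond the gene, most fragments of the window came from the promoters of neighbouring genes. The promoter sites of Slc39a13 (−26.6 kb) and Madd (+86.5 kb) were positive in 17 of 25 sets each, that of Nr1h3, which encodes the liver X receptor alpha, at +98.1 kb in 15, that shared by Acp2 and Nr1h3 at +106.1 kb in 13 and that of Psmc3, a proteasome subunit, at −42.6 kb in 12. These 5 sites held 285 of the 444 fragments. The Slc39a13 site was found 78 times in positive sets against 217 at its pooled pSKB share, a ratio of 0.359 (0.284 to 0.448). The other promoters of this group had ratios between 1.00 and 1.30. In the Negative sets Slc39a13 was likewise low, with 32 against 71.3 (0.449, 0.307 to 0.633), and the others lay between 0.941 and 1.51. Of the small distal sites, the Rapsn exon site at −53.7 kb (10 fragments) was listed in HE2 and HP and the one at −51.3 kb (5 fragments) in ES and HB. In ES and HB together, positive sets held 0 fragments at −53.7 kb against 6.21 at its pooled pSKB share. At +36.0 kb they held 0 against 4.59. The −53.7 kb window had 3 RUNX matches, as at the URE, and 0 C/EBP matches. Its plasmid rate was 5.22 times as high in HP as in ES in pDONR (3.32 to 8.60) and 2.46 times (1.04 to 6.25) in pSKB. The −35.5 kb site in a Psmc3 intron had 11 fragments in 8 positive sets, and the sites at −94.7, +36.0, +40.1, +43.2 and +43.5 kb had 1, 4, 1, 1 and 1 fragments, each in positive sets of 1 stage alone and in no Negative set.

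Fragment identity gave a view of how the lists were built. Of the 444 window fragments, 249 were in 1 library, 30 in at least 5, 315 at 1 stage and 38 at 3 or more. In all, 114 were listed in both positive and Negative libraries and 46 in Negative libraries alone. An identical plasmid fragment was present for 325 (73.2%), against 80.5% over all sorted fragments. Seen from the plasmids, 8.69% of pSKB fragments at the distal sites of the window were found in a positive set (6.31 to 11.6), against 11.1% over all distal sites, and 7.01% (5.70 to 8.51) at its promoter sites, against 10.6%. The share was 10.0% at the URE (4.68 to 18.1), 18.8% at +4.9 kb (7.21 to 36.4) and 2.58% at the Slc39a13 promoter (1.42 to 4.30).

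Stages differed in list size, so the number of active sites was compared at equal numbers of fragments. Unadjusted, 6, 5, 7, 9 and 6 of the 13 distal sites were positive in ES, HB, HE1, HE2 and HP, beside 28.9%, 36.2%, 51.2%, 48.5% and 41.3% of all distal sites. Of the 8 promoter sites, 5, 5, 6, 8 and 8 were positive, beside 74.0%, 78.5%, 78.5%, 78.2% and 76.7%. With each stage thinned to the 200199 positive fragments of ES, the distal sites expected were 6, 4.92, 6.23, 7.92 and 5.96, which is 46.2%, 37.9%, 47.9%, 60.9% and 45.8% of 13. All distal sites treated in the same way gave 28.9%, 32.6%, 40.2%, 40.8% and 37.8%. Thinned promoter sites were 5.00, 5.00, 5.97, 7.47 and 7.60 of 8, and over all promoters the share stayed between 74.0% and 76.3%. The promoter sites listed at later stages but not in ES or HB were the Spi1 promoter, from HE1 on, and, in HE2 and HP, the +87.3 kb site over a Madd start and the +87.6 kb site 247 bp from one. The +87.3 and +87.6 kb sites held only 5 and 2 distinct fragments. At their pooled pSKB shares, positive sets of ES and HB together would hold 3.10 and 0.496 fragments. These are close to or under the 3 counts that a 0 allows, so the 2 empty sites say little about ES and HB. In the Negative sets, thinned to 74325 fragments, 20.8%, 36.0%, 26.4%, 23.1% and 38.2% of the distal window sites were expected in ES, HB, HE1, HE2 and HP, beside 16%, 17.9%, 23.6%, 23.4% and 21.4% of all distal sites. The Negative sets were thus highest in HB and HP, and the positive sets in HE2.

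**Figure D4:**
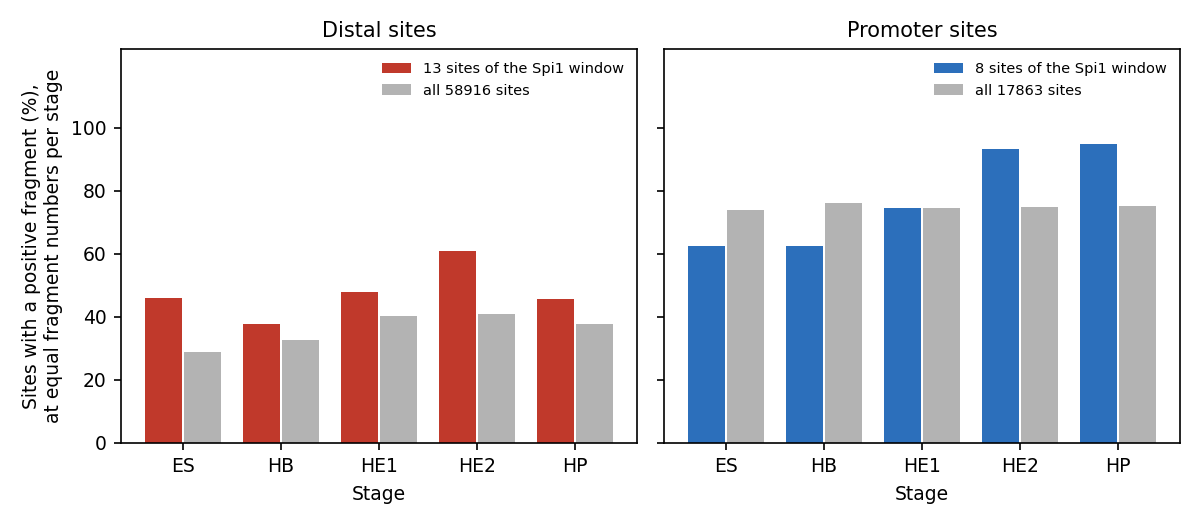
Share of sites with at least 1 positive fragment (y axis, percent) at each stage after thinning every stage to the same number of fragments, for distal (left) and promoter (right) sites, in the Spi1 window (coloured bars) and over all sites (grey bars). Distal sites of the window peak in HE2 at 60.9%, where all distal sites reach 40.8%, and promoter sites of the window go from 62.5% in ES to 95% in HP. The rise at promoter sites rests on the Spi1 promoter, +87.3 and +87.6 kb sites, which held 11, 5 and 2 distinct fragments.

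The window as a whole was then compared between sets as window fragments per 10000 listed fragments. In ES the positive sets of replicates 1 to 5 had 2.80, 3.77, 3.77, 0 and 0 and the Negative sets 3.00, 3.63, 5.34, 5.99 and 11.3. In HP the positive sets had 3.93, 3.75, 8.66, 25.0 and 6.68. Values of replicates 1 and 2 lay between 2.78 and 5.12 in all 20 sets, whereas those of replicates 3 to 5 ranged from 0 to 32.7, with 6 of 30 sets at 0. The values were widest apart in the smallest lists.

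Positive sets of ES had a mean of 2.07 ± 1.93 (SD, n = 5) and Negative sets 5.86 ± 3.30, with the positive set lower in 4 of 5 replicates (p = 0.0476 in an exact permutation test, two-sided, and 0.238 after adjustment over 5 stages). HB had 5.79 ± 3.64 and 10.3 ± 8.28, lower in 5 of 5 (exact adjusted p = 0.489), and HE1 had 3.06 ± 1.74 and 8.57 ± 9.04 (exact adjusted p = 0.489). HE2 had 9.59 ± 13.1 and 5.37 ± 8.18, and HP 9.60 ± 8.83 and 5.79 ± 4.84 (exact adjusted p = 0.516 for each). No stage passed. The smallest p that 5 against 5 sets can give is 0.00794. Paired by replicate number, the exact test gave p = 0.125 in ES and 0.0625 in HB, the smallest that 5 pairs allow, with adjusted p-values from 0.208 to 0.438 over the 5 stages. Without replicate 4 the difference between positive and Negative sets went from −5.51 to −1.77 in HE1, from 4.22 to 2.00 in HE2 and from 3.80 to 0.725 in HP, and without replicate 5 it went from −3.79 to −1.90 in ES and from 3.80 to 6.14 in HP. In replicates 1 and 2 alone, ES had 3.29 in positive and 3.31 in Negative sets.

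Between stages, the rate in positive sets was 7.53 per 10000 higher in HP than in ES, higher in 4 of 5 replicates (exact permutation test, p = 0.0238, adjusted p = 0.119 over 5 comparisons). With fragments identical to a plasmid fragment alone, the difference was 5.02 with an exact adjusted p of 0.0397, and in replicates 1 and 2 alone it was 0.555. Without replicate 4 it was 3.17, and the step from HE1 to HE2 went from 6.52 to 0.911. Without replicate 5 the step from ES to HB went from 3.73 to 1.95 and that from HB to HE1 from −2.73 to −1.65. Without the 4 HE1 libraries that share fragments, the step from HB to HE1 was −1.77 and that from HE1 to HE2 was 5.56. The adjacent steps had exact adjusted p-values of 0.317 (ES to HB), 0.367 (HB to HE1 and HE1 to HE2) and 0.992 (HE2 to HP).

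**Figure D5:**
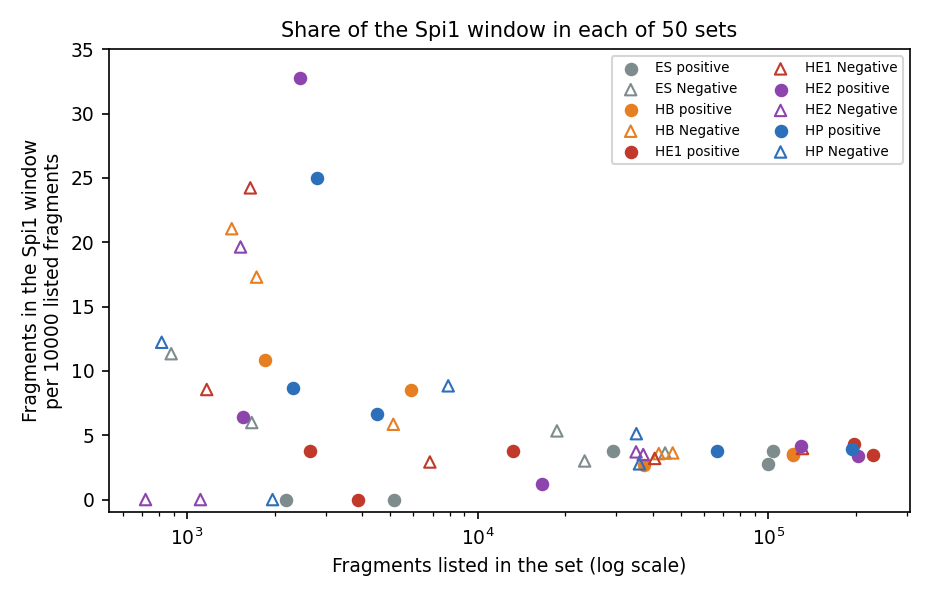
Spi1 window fragments per 10000 listed fragments (y axis) against the number of fragments listed in the set (x axis, log scale) for 25 positive (filled circles) and 25 Negative (open triangles) sets, coloured by stage. Sets above 50000 fragments lie between 2.80 and 4.31, and the values spread from 0 to 32.7 as the lists get smaller.

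The gates were compared next. Over all stages the window was listed 181 times in Low, 245 in Medium, 231 in High, 5 in Medium/High and 213 in Negative libraries. Of the positive listings, 72.7% (69.1 to 76.0) came from Medium or higher gates, against 74.3% of all fragments. The URE, with 11 Low, 17 Medium, 15 High and 14 Negative listings, had 74.4% (58.8 to 86.5), and the Spi1 promoter, with 4 Low, 5 Medium, 3 High and 2 Negative, 66.7% (34.9 to 90.1). The +4.9 kb site, with 5 Low, 11 Medium, 18 High, 1 Medium/High and 5 Negative, had 85.7% (69.7 to 95.2). Without its most listed fragment the share was 79.2% (19 of 24). Its positive listings above the Low gate were 4 of 6 in ES, 3 of 3 in HB and 7 of 7 in HE1. They were 7 of 10 in HE2 and 9 of 9 in HP. Over all fragments the shares at these stages were 71.3%, 76.9%, 76.4%, 66.0% and 81.7%. In the exact permutation test of rates in high against low gates, adjusted p-values lay between 0.794 and 0.897 at the 5 stages.

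Single sites were tested with limma on log2(fragments per 10000 + 1), fitted over every site that 4 or more of the 10 sets of a comparison listed. Between 6 and 11 of the 21 window sites entered each of the 5 comparisons of positive with Negative sets and the 5 between stages, and 0 were called at an adjusted p under 0.05, beside 0.0% of sites in the whole series, or 0.00557% (1 site) for ES to HB. At an unadjusted p under 0.05, limma gave 5 window results over the 10 comparisons and 29 to 518 sites of the series in each. Between positive and Negative sets these were 1 of 8 window sites in ES and 1 of 6 in HE1. The series had 222 of 13729 and 29 of 17812 there. Between stages they were 1 of 9 for ES to HB and 2 of 7 for ES to HP, beside 518 of 17953 and 364 of 15457. In simulated data the fit recovered 13.1% of sites changed 8-fold and 70.5% of those changed 32-fold for HE1 positive against Negative sets, and 20.2% and 89.0% for ES to HP. The change was multiplied onto the pooled rate of a site, so changed sites held more fragments than the real ones. Counts were drawn independently, without the recurring and shared fragments of these lists. The recovered shares can therefore overstate recovery at real window sites. The URE could be tested from HE1 on, and its log2 differences were −0.05 (SE 0.22) for HE1, −0.06 (SE 0.16) for HE2 and 0.09 (SE 0.26) for HP between positive and Negative sets. Mean URE rates in those sets were only 0.105 to 0.264 per 10000, with 0 in replicates 3 to 5. Beside rates this low, the 1 added before log2 keeps any difference near 0. These URE values therefore do not show equal rates in positive and Negative cells. The window sites with the lowest p-values did not pass. The Madd promoter had a log2 difference of 1.39 (SE 0.52) from ES to HB (limma, adjusted p = 1.00). The Slc39a13 promoter had one of 1.44 (SE 0.60) from ES to HP (limma, adjusted p = 0.990).

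The windows of 10 other blood regulators, built in the same way, gave a scale for these counts. They held 10 to 35 sites and 109 to 473 fragments, so that Spi1, with 21 and 444, was near their upper end in fragments. Distal sites with the stage pattern of the URE numbered 1 of 13 at Spi1, 4 of 33 at Runx1, 4 of 21 at Ikzf1, 4 of 21 at Csf1r, 4 of 13 at Myb, 6 of 31 at Fli1, 3 of 8 at Gfi1, 1 of 9 at Cebpa, 1 of 16 at Lmo2, 0 of 13 at Tal1 and 0 of 11 at Gata1, beside the 6.66% of all distal sites given above, and limma called 0 sites at any of them. Over the 25 positive sets, the genes whose window rates were most like that of Spi1 were Agps (Pearson r = 0.842), Tent5b (0.785), Tmem245 (0.769), Armc1 (0.754) and Kdm1a (0.749), of 10393 genes compared with a median r of −0.102. These correlations rest on the small sets, in which 1 fragment moves a rate by several units, and all sets share the depth of their libraries.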

How the data were processed

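Per the study's methods, the authors resequenced library material of their earlier study and combined the reads with the published data. They trimmed reads with Trim Galore, aligned them to mm10 with Bowtie2 and kept unique high-quality pairs with SAMtools. Each pair was written as a fragment with bedtools, and duplicates were removed. Fragments were then filtered against the HM-1 controls, the union of the plasmid libraries and open chromatin peaks. The sorted lists were deposited as coordinates, each fragment once with no value, so no count model applied. The plasmid and HM-1 lists were deposited with the authors' raw read counts, not normalized. Starts in the sorted lists were 1 bp higher than in the plasmid lists and were moved by 1 bp. After this, 73.2% of window fragments had an identical plasmid fragment. The others had none, although the methods describe the plasmid filter as requiring an identical fragment. The cause was not tested. Rates divide by the fragments listed in a set.

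Tests were exact permutations of 5 against 5 sets (252 splits) with Benjamini-Hochberg adjustment, and limma 3.58.1 in R 4.3.3 (lmFit and eBayes with trend), checked on simulated data. Tables were made with Python 3.11.15, pandas 2.3.3 and SciPy 1.17.1. Annotation was GENCODE for mm10, and RefSeq for the Spi1 start and GRCm38.p6 for sequence. Sites named in the text are those of the URE zone, the Spi1 promoter, the Spi1 gene and the study's element, the 5 other window sites positive in most sets, and the 2 with the lowest limma p. The sites at −94.7, −53.7, −51.3, −35.5, +36.0, +40.1, +43.2, +43.5, +87.3 and +87.6 kb were named after their values were seen. The remaining distal site of the window is not reported here. The window, gene lists and motifs were chosen with earlier results of these data known. Alternatives were the replicate block, leaving out each replicate, distal fragments alone, fragments identical to a plasmid fragment, 50 kb flanks, the High gates alone, leaving out 4 HE1 libraries that share fragments, 0.25 added before log2, no filter on sites, and bins of 500 bp. Restriction to replicates 1 and 2 was added after seeing the data.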

Additional observations from a re-analysis of the deposited data

Results flagged for a closer look

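In 5 of 10 groups of 5 sets, 1 set lay far from the rest in Spi1 window fragments per 10000 listed fragments. Chance would flag about 5% of groups only if the 5 values had equal normal spread. These sets differ widely in depth, from 1169 to 131091 listed fragments in HE1 Negative sets, so that share does not apply. The highest HE1 Negative set had 24.2 (replicate 4, 4 fragments of 1651 listed), the lowest HE1 positive set had 0 (replicate 3, 0 of 3866), the highest HE2 Negative set had 19.6 (replicate 4, 3 of 1528), the highest HE2 positive set had 32.7 (replicate 4, 8 of 2444) and the highest HP positive set had 25.0 (replicate 4, 7 of 2805). All 5 were sets of replicates 3 to 5, whose lists were small, and 4 of them were of replicate 4.

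The 3 HM-1 PCR control lists, made from cells without a library, held 6 window fragments. Of these, 4 overlapped a site (the −51.3 kb site, the Madd and Slc39a13 promoters and the +18.7 kb site), each with 1 read, and 0 overlapped the URE, the Spi1 promoter or the +4.9 kb site.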

How the results depend on the processing

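No window site was called by limma under the main settings or any alternative (replicate block, 0.25 added before log2, no filter, bins of 500 bp, each replicate left out). Same-number correlations of positive and Negative sets ran from −0.038 to 0.438 and were over 0.1 in 20 of 25 pairs. They were over 0.1 in all 5 pairs of ES, where the numbers were taken to pair the sets, but not in all pairs of another stage, and a set correlated best with its own number in 16 of 25 cases. With the replicate block the count of called window sites was 0 and of called sites in the series 0, against 1 without it. Calls over the series were 5 and 20 without the filter (0 and 1 with it), and 2 without replicate 4 and 15 without replicate 5 between stages. The ES to HP difference in rate passed with plasmid-identical fragments (5.02, exact adjusted p = 0.0397) and under no other setting. The locus-rate differences below, none of which passed an exact test, changed sign, so their direction rests on the setting. The cause was not tested. With distal fragments alone, positive minus Negative was 0.467 in ES, 2.62 in HE1 and −8.01 in HP, the stage steps were −0.284 (ES to HB), 1.41 (HB to HE1) and −2.45 (HE1 to HE2), and high minus low gates was 1.70 in HB, −0.127 in HE2 and 3.13 in HP. With plasmid-identical fragments the HP gate difference was 0.330. With 50 kb flanks, HB to HE1 was 0.432 and the gate difference 0.695 in HB and −2.11 in HE2. In replicates 1 and 2 alone, positive minus Negative was 0.313 in HE1 and −0.108 in HP, the steps 0.407 (HB to HE1) and −0.115 (HE1 to HE2), and the gate differences −0.522 (ES), −1.10 (HE1), −0.459 (HE2) and 0.355 (HP). Leaving out 1 replicate gave −1.85 to 1.96 for HE2 to HP (below 0 without replicate 1, 3 or 5), and for the gates −0.261 to 1.45 in ES (without replicate 3 the lowest), −4.20 to 2.72 in HB (without replicate 5 the highest) and −7.21 to 2.99 in HP (without replicate 4 the highest). In the Negative cells, thinned in the same way, distal window sites were 2.70 in ES, 3.43 in HE1 and 3.00 in HE2, with 4.69 in HB and 4.96 in HP. Identity with plasmid fragments was 4.50% with starts as deposited and 95% within 5 bp. With 720 to 37403 fragments a set, replicates 3 to 5 would hold under 3 URE fragments at the later stages, at the rate of replicates 1 and 2, in positive and in Negative sets alike.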
